A study of Schmidtea mediterranea with 40 samples.

Results

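Stage 5 (S5) embryos of the planarian flatworm Schmidtea mediterranea were compared with intact adults of its asexual strain CIW4 (C4) across the whole transcriptome, using 4 RNA-Seq libraries in each group out of the 40 libraries of the series. Each S5 library was made from 1 embryo collected at day 6 after egg capsule deposition, from outbred parents of the sexually reproducing biotype. Each C4 library was made from 1 intact adult of a line that multiplies by fission and is kept as a clone. No transgene or experimental treatment is described for either group. The C4 line was propagated by repeated cutting and regeneration, and intensively cut or fed cultures received gentamicin. All 35262 transcripts of the deposited table were considered, and 27259 of them were tested. The remaining 8003 fell under a sum of 1 RPKM over the 8 libraries, and 1326 of these had no read in any of the 8. RPKM is the read count of a transcript relative to its length and to the size of its library, which the authors scaled between libraries. Embryonic stage and biotype changed together between the groups and cannot be told apart in this comparison. The animals were also homogenized in different ways, the embryos by pipetting and the adults with a tissue disruptor. In whole animals, fewer cells of a type and less RNA per cell cannot be told apart either.

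As background, planarian embryos develop inside a capsule packed with yolk cells and have no classical germ layers at first. Early blastomeres build temporary tissues, among them a primitive ectoderm and an embryonic pharynx, with which the embryo swallows the yolk cells that fill its gut cavity. Undifferentiated blastomeres keep dividing and give rise to the definitive organs of the worm. Adults maintain and regenerate all their tissues from neoblasts, dividing stem cells that express the Piwi-family gene piwi-1. The comparison asks which transcripts mark the embryo at a stage when its temporary tissues are still present and its definitive organs are only beginning to form.

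The S5 libraries were dominated by a small number of transcripts. The 100 most read transcripts of each library took 67.6, 51.9, 49.3 and 56.6% of the reads in the S5 embryos, against 22.1 to 24.2% in the C4 adults, a difference of 33.1 percentage points (p = 0.0286 in a two-sided exact test permuting the libraries, which cannot give a lower p with 4 against 4). A list of 100 yolk-abundant transcripts comprised those with the highest mean in yolk (Y) libraries at 5 times the sexual adult (SX) mean or more, a rule that used neither S5 nor C4. These transcripts held 65.8, 48.5, 45.7 and 54.0% of the S5 reads, against 9.26, 10.2, 8.79 and 8.55% of the C4 reads. Depth was 8742936 to 12213900 reads on transcripts in S5 and 12167500 to 16985280 in C4. At least 1 read was found for 22322 to 27123 transcripts in S5 and for 26072 to 30828 in C4, a difference that the exact test did not separate (p = 0.0571). The groups were nevertheless far apart as wholes. Pearson's r of log2(RPKM + 0.1) across transcripts was 0.904 to 0.953 between S5 replicates and 0.950 to 0.980 between C4 replicates, but 0.616 to 0.686 between an S5 and a C4 library. The mean distance between libraries of different groups exceeded that within groups by 1.50 log2 units (exact permutation test, p = 0.0286).

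**Figure D1:**
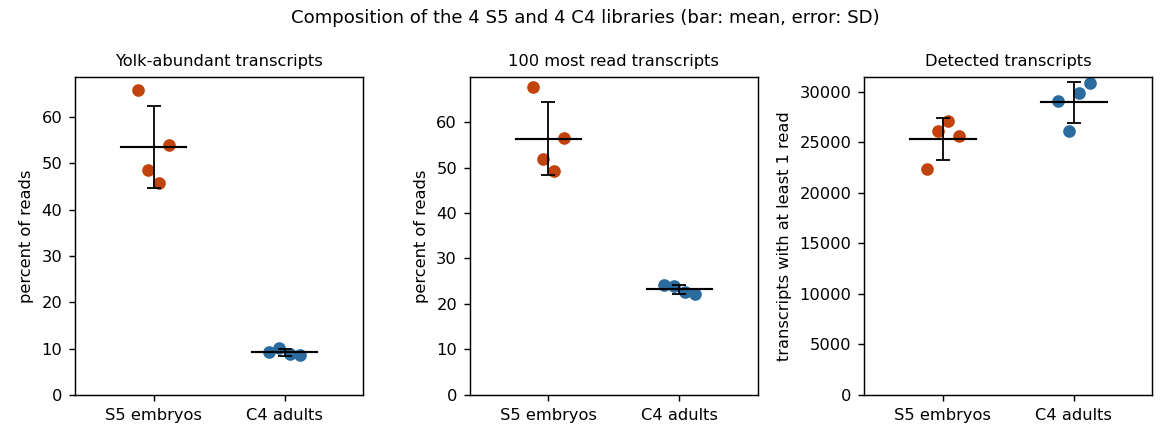
Share of reads in 100 yolk-abundant transcripts (left, percent), share of reads in the 100 most read transcripts (middle, percent) and number of transcripts with at least 1 read (right) in each library. Points are libraries, 4 S5 embryos on the left and 4 C4 adults on the right of each panel, with the mean as a bar and the SD as the error; the S5 shares of 45.7 to 65.8% and 49.3 to 67.6% lie above all C4 shares, while the numbers of detected transcripts overlap.

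A transcript was called when limma gave an adjusted p below 0.05 (Benjamini-Hochberg), the group means differed by at least 1 in log2(RPKM + 0.1), and the higher group averaged at least 1 RPKM. By this rule 3507 transcripts, 12.9% of those tested, were higher in S5 embryos, and 6680, 24.5%, were lower. Of the 10187 called transcripts 9784 had no overlap between the 4 S5 and the 4 C4 values. Over all transcripts tested, every S5 value lay above every C4 value for 6172 (22.6%) and below for 9086 (33.3%). The lower calls were also the larger ones: 1086 differed by 5 log2 units or more, against 233 of the higher calls. At a stricter limit of 5-fold and adjusted p below 1e-05, 513 transcripts (1.88%) were higher and 1843 (6.76%) were lower, counts that dropped to 246 and 625 without C4 replicate 1 and varied with other libraries left out. The median difference over all transcripts tested was -0.18. The balance of directions depended on the scaling of the libraries: 34.4% of the calls were higher in S5 with the deposited scaling, 50.2% after quantile normalization, 14.4% when RPKM was computed from total reads, and 42.9% when the yolk list was left out of the scaling. The corresponding medians over all transcripts were 0.31, -0.86 and -0.03, so the direction of small differences depended on the scaling.

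Probe target regions designed by the study for its direct counting assay identify 5 of the transcripts on which the comparison turns. They are shown in lower case throughout, 5′ to 3′, because EF1a-like-1 and EF1a-like-2 are embryonic copies of a translation factor, SMED30005227 an embryonic tubulin copy, gelsolin-like a primitive ectoderm marker and piwi-1 the common marker of blastomeres and neoblasts.
EF1a-like-1: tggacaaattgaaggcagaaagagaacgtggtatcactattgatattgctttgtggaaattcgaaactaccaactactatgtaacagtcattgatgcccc
EF1a-like-2: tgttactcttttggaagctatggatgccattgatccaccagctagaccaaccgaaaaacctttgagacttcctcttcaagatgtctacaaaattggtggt
SMED30005227: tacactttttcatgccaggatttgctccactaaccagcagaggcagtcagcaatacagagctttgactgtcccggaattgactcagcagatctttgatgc
gelsolin-like: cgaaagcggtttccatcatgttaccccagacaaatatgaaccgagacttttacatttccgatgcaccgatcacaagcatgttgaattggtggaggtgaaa
piwi-1: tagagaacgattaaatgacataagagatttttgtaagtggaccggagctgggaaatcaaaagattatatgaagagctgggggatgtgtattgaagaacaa

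The temporary embryonic tissue markers called here, 2 of the pharynx and 2 of the primitive ectoderm, were detected in every S5 embryo and were far lower in the adults. For the embryonic pharynx, the venom allergen-like transcript VAL-like had 235, 37.5, 100.2 and 132 RPKM in the S5 embryos, against 1.23, 1.71, 0.922 and 1.06 RPKM in the C4 adults (difference 6.33 ± 0.47 SE in log2(RPKM + 0.1), limma adjusted p = 2.4e-06). Netrin-like, related to a secreted guidance cue for growing axons, had 6.01, 14.6, 7.73 and 2.13 RPKM in S5, against 0.0426, 0, 0 and 0.0158 RPKM in C4 (5.79 ± 0.52). The S5 values of both markers spread widely between embryos, but lay above all adult values. MPEG1-like-1, related to a macrophage pore-forming protein, stayed under the limit of 1 RPKM at 0.293 to 0.813 RPKM in S5 and 0 to 0.0293 RPKM in C4 and was not called. The fourth pharynx marker, MPEG1-like-2, was too low to be tested. For the primitive ectoderm, gelsolin-like, related to an actin-severing protein, had 36.1, 43.3, 24.1 and 29.8 RPKM in S5, against 0.158, 0.0991, 0.0712 and 0.234 RPKM in C4 (7.13 ± 0.27, adjusted p = 4.2e-08). Spondin1-like, related to a matrix protein, had 3.05, 5.57, 2.17 and 1.48 RPKM in S5 and at most 0.0471 RPKM in C4 (4.46 ± 0.42). Before S5 the study also stained gelsolin-like in the embryonic pharynx and spondin1-like in parenchymal cells. It saw no early embryo enriched transcripts in the primitive ectoderm by S5, so the tissue behind these S5 values is not known. The study chose these markers by stage comparisons within this series that included the S5 libraries, so their counts are not independent evidence of a direction.

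All 4 embryonic gut markers rose, with a median difference of 8.17, but the study had picked them among transcripts enriched in stages 4 and 5 of this series, so the count is not independent evidence. CTSL-like, a cathepsin L-type lysosomal protease, had 473, 543, 683 and 638 RPKM in S5, against 1.7, 1.97, 1.6 and 2.07 RPKM in C4 (8.23 ± 0.15, adjusted p = 3.2e-09). The MPEG1-related transcript MPEG1-like-3 had 107, 121, 103 and 94.2 RPKM in S5, against 0.11, 0.197, 0.0991 and 0.0465 RPKM in C4 (9.00 ± 0.22). These 2 transcripts varied little between embryos and were separated from the adults by a wide gap. The transcripts named LYAG-like after lysosomal alpha-glucosidase, which breaks down glycogen, differed in their adult level: SMED30008977 had 49.8 to 71.2 RPKM in S5 and 0.0713 to 0.158 RPKM in C4, and SMED30028442 had 22.9 to 31.9 RPKM in S5 and 1.39 to 1.81 RPKM in C4. In the yolk libraries CTSL-like was at 0.563 to 11.8 RPKM, well under its S5 level.

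**Figure D2:**
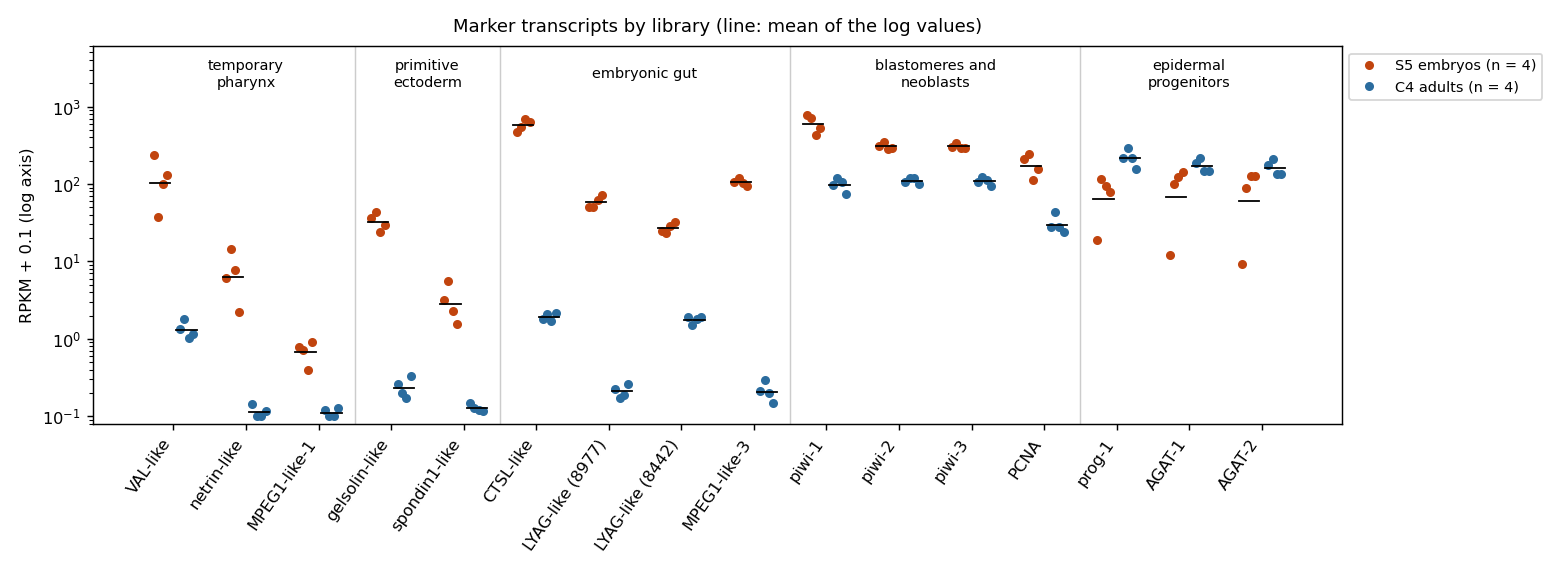
RPKM + 0.1 on a log axis for 16 marker transcripts, grouped by the tissue each was named for, which is not shown to be its site at S5. Orange points are the 4 S5 embryos and, to their right, blue points the 4 C4 adults, with a line at the mean of the log values; the adult values of pharynx, ectoderm and embryonic gut markers lie below all S5 values, piwi-1 to PCNA were higher in S5, and for the 3 epidermal progenitor markers S5 replicate 1 lies far below the other embryos.

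The largest rises combined lysosomal transcripts with the yolk list. Among transcripts averaging at least 10 RPKM, the largest difference was that of SMED30032465, whose best match is epididymal secretory protein E1, a lysosomal cholesterol carrier in mammals. It had 221, 305, 228 and 222 RPKM in the S5 embryos, against 0, 0, 0 and 0.193 RPKM in the C4 adults (10.85 ± 0.34, adjusted p = 1.7e-08). The cathepsin B-like protease SMED30010459 had 504, 587, 236 and 362 RPKM in S5, against 0.033, 0.207, 0.149 and 0.269 RPKM in C4 (10.65 ± 0.36). Both were low in yolk libraries, where SMED30032465 reached 3.12 RPKM and SMED30010459 reached 11.0 RPKM. By contrast, the 8 other largest rises without overlap belonged to the yolk list. The most abundant S5 transcript, SMED30030028, had 391254, 181798, 132627 and 208267 RPKM in S5, against 141, 256, 172 and 348 RPKM in C4, and 1204460 to 1954030 RPKM in yolk. Of the 100 yolk-abundant transcripts 62 were called higher and 1 lower, where 12.9% and 24.5% of all transcripts tested were. Over the whole transcriptome, 989 of the 3507 transcripts called higher had a mean RPKM in yolk at or above their S5 mean. The factor that scaled library size was 0.203 to 0.292 in yolk and 0.718 to 1.28 in S5. This raises yolk RPKM relative to the share of reads, so transcripts with equal shares of reads would also be counted. The part of ingested yolk cells in those 989 was not tested.

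Protease and pore-protein families split into embryonic and adult copies. Of the 10 cathepsin-type transcripts 6 rose (60%) and 3 fell (30%), against 12.9% and 24.5% of all transcripts tested. This and the other lists picked by words in the annotation hold only transcripts of the study's stage-enriched or neoblast tables. Many of these were chosen by stage comparisons that included S5, so counts of such lists are not independent evidence of a direction. Besides CTSL-like and SMED30010459, the cathepsin L transcript SMED30017650 had 276, 534, 599.7 and 465 RPKM in S5, against 1.99, 2.6, 1.8 and 1.82 RPKM in C4 (7.72 ± 0.24), and SMED30017598 had 39.7 to 44.9 RPKM in S5 and 0 to 0.0751 RPKM in C4. In the other direction, the cathepsin L1 transcript SMED30013826 had 0 to 0.279 RPKM in S5 and 18.6 to 26.1 RPKM in C4 (-7.14 ± 0.42). Cathepsin L2, SMED30017940, had 4.1, 24.2, 140.2 and 40.5 RPKM in S5, against 546, 541, 414 and 436 RPKM in C4. Digestive cysteine proteinase SMED30018252 fell by 2.57 log2 units and was abundant in adults, at 2074 to 3538 RPKM in C4. For the list of MPEG1 and lysosomal transcripts, 6 of 14 tested members rose and 6 fell (42.9% each), and 3 of the 17 listed were too low to test. MPEG1 copies SMED30032925 (111 to 141 RPKM in S5, 0.0648 to 0.234 RPKM in C4) and SMED30035691 (70.2 to 81.6 RPKM in S5, 1.15 to 1.89 RPKM in C4) were embryonic. Copies SMED30029077 (0.513 to 3.64 RPKM in S5, 119.7 to 138 RPKM in C4) and SMED30019745 (0.149 to 1.29 RPKM in S5, 22.5 to 25.4 RPKM in C4) were adult. Lysosomal acid phosphatase SMED30009962 and palmitoyl-protein thioesterase SMED30012316 also fell, by 3.86 and by 4.16 log2 units. Mapping allowed a read to match several places, so reads of near-identical copies may be shared and the level of any one copy is uncertain.

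Most of the listed translation transcripts were higher in the embryos. Of 27 tested translation transcripts, out of 28 listed, 18 rose (66.7%) and 2 fell (7.4%), with a median difference of 3.25. The shares over all transcripts tested were 12.9% and 24.5%. Elongation factor copy EF1a-like-2 had 191, 148, 46.6 and 98.1 RPKM in the S5 embryos, against 0.117, 0.257, 0.29 and 0.389 RPKM in the C4 adults (8.26 ± 0.42, adjusted p = 2e-07), and EF1a-like-1 had 149.9, 75.4, 23.6 and 48.3 RPKM in S5, against 0.191 to 0.398 RPKM in C4. Both were highest in S5 replicate 1 and lowest in S5 replicate 3. The initiation factor transcript SMED30008237 (49.4 to 123 RPKM in S5, 0 to 0.286 RPKM in C4) and the 40S ribosomal protein S3 transcript SMED30020916 (21.8 to 106 RPKM in S5, 0.103 to 0.378 RPKM in C4) followed the same order of embryos. Both EF1a-like copies had been higher at stage 4, at 751 to 1163 RPKM for EF1a-like-1 and 525 to 872 RPKM for EF1a-like-2. Ubiquitin-60S ribosomal protein L40, SMED30007461, went the other way with 0 to 0.617 RPKM in S5 and 9.18 to 26 RPKM in C4. The translation list covers only transcripts annotated in the study's stage-enriched or neoblast tables, so it is not a census of ribosomal proteins. Nor are its counts independent evidence of a direction.

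Of 9 tested transcripts for tubulin, the subunit of microtubules, 2 rose and 2 fell, out of 10 listed, which is 22.2% in each direction, against 12.9% higher and 24.5% lower over all transcripts tested. The beta chain copies SMED30005227 (54.2, 39.2, 10.6 and 23.0 RPKM in S5, against 0.165, 0.207, 0.198 and 0.203 RPKM in C4) and SMED30017897 (9.76 to 56.9 RPKM in S5, 0 to 0.485 RPKM in C4) rose by 6.52 and 6.53 log2 units. Beta-4B tubulin SMED30010977 fell by 1.36, with 125, 256, 424 and 272 RPKM in S5 and 539.5 to 779 RPKM in C4. Of 23 tested muscle protein transcripts, out of 24 listed, 6 rose and 13 fell. Tropomyosin, which winds along actin filaments, had 17.9 to 41.5 RPKM in S5 and 0 to 0.0873 RPKM in C4 for copy SMED30015345, and 7.78 to 20.9 RPKM in S5 and 0 to 0.226 RPKM in C4 for copy SMED30013113. Copy SMED30002983 had 4.73, 10.1, 28.1 and 8.48 RPKM in S5, against 433, 433, 399.6 and 331 RPKM in C4 (-5.25 ± 0.43). The myosin heavy chain SMED30016281 had 3.86 to 8.1 RPKM in S5 and 335 to 478 RPKM in C4, while SMED30020435 had 0.906 to 3.84 RPKM in S5 and 0.0171 to 0.0313 RPKM in C4. Troponin I copy SMED30020360 rose by 4.25 and the smooth muscle-type protein myophilin, SMED30035301, rose by 7.69, at 24.9 to 51.0 RPKM in S5 and 0 to 0.24 RPKM in C4. Titin, SMED30008578, the giant spring protein of the sarcomere, fell by 5.26. Summed over the list, muscle proteins reached 166 to 451 RPKM in S5 and 3094 to 3881 RPKM in C4.

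Most listed collagens and innexins were lower in S5, while some members were far higher there. Of 14 collagens 2 rose (14.3%) and 10 fell (71.4%), with a median of -4.37. Over all transcripts tested 12.9% rose and 24.5% fell, so the rising share of collagens was near the general one. The pair that rose encodes type IV collagen, the network collagen of basement membranes: alpha-1(IV) SMED30001128 had 17.9, 18.8, 8.4 and 6.92 RPKM in S5 and 0.0544 to 0.0879 RPKM in C4 (6.16 ± 0.36), and alpha-2(IV) SMED30024691 had 9.32 to 16.5 RPKM in S5 and 0.105 to 0.196 RPKM in C4 (5.71 ± 0.25). Those that fell included the fibrillar collagen alpha-2(I) SMED30004485, with 1.27 to 3.86 RPKM in S5 and 69.0 to 96.0 RPKM in C4, and the alpha-5(VI) and alpha-4(VI) chains SMED30008087 and SMED30009269, which fell by 7.89 and by 7.10. Nidogen-2, SMED30028912, a further basement membrane protein, had 62.8, 56.2, 85.7 and 85.9 RPKM in S5, against 1337, 2374, 1436 and 1075 RPKM in C4 (-4.38 ± 0.26). Of 39 innexins, the gap junction proteins of invertebrates, 13 rose (33.3%) and 23 fell (59.0%), and only 3 were not called. SMED30002918 had 159.9, 201, 131 and 163 RPKM in S5, against 0.263, 0.293, 0.316 and 0.691 RPKM in C4 (8.44 ± 0.25, adjusted p = 1.4e-08). Innexin-3, SMED30020267, had 67.4 to 103 RPKM in S5 and 0.102 to 0.346 RPKM in C4. The neoblast innexin inx13 had 42.6 to 60.3 RPKM in S5 and 2.33 to 4.41 RPKM in C4. SMED30004277 had 0 to 0.115 RPKM in S5 and 10.5 to 17.6 RPKM in C4 (-6.35 ± 0.31), and SMED30016693 had 0.24 to 0.768 RPKM in S5 and 23.9 to 28.8 RPKM in C4.

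**Figure D3:**
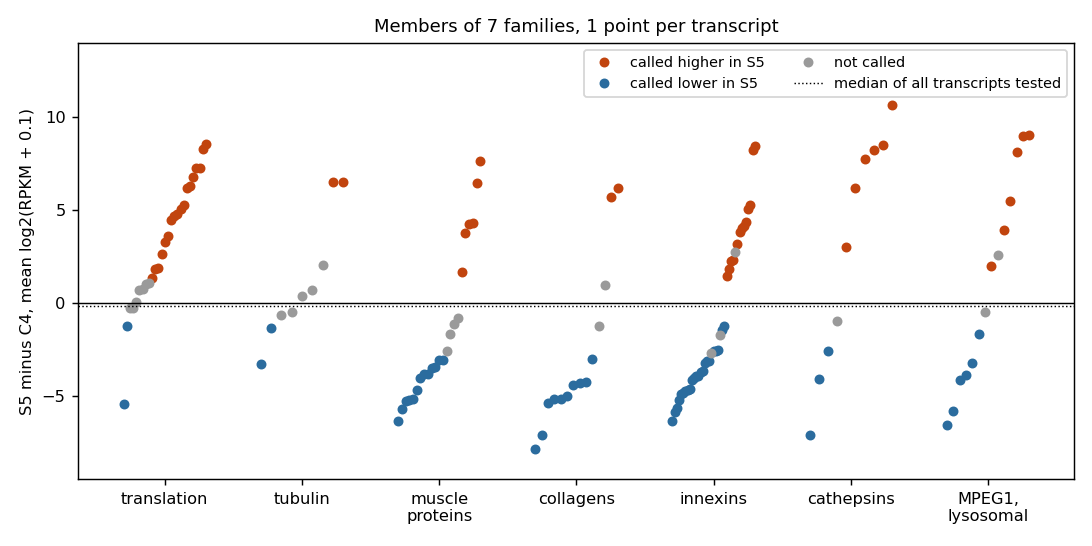
Difference between S5 and C4 in mean log2(RPKM + 0.1) for each tested transcript of 7 families, sorted within the family; positive values are higher in S5. Orange points were called higher in S5, blue points lower, grey points were not called, and the dotted line is the median of all transcripts tested (-0.18). Collagens, innexins, muscle proteins and cathepsins each held members more than 5 log2 units apart from each other in opposite directions.

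Genes of dividing stem cells were higher in the embryos. Of 242 transcripts enriched in adult neoblasts, a list made by irradiation outside these samples, 204 rose (84.3%) and 8 fell (3.3%), with a median of 1.87. The shares over all transcripts tested were 12.9% and 24.5%. Piwi-1 had 781, 719.6, 423 and 522 RPKM in S5, against 96.1, 119, 105 and 75.0 RPKM in C4 (2.61 ± 0.23, adjusted p = 7.3e-06). The Piwi-family transcripts piwi-2 (283 to 344 RPKM in S5, 98.4 to 120.2 RPKM in C4) and piwi-3 (289 to 343 RPKM in S5, 94.3 to 122 RPKM in C4) rose by 1.48 and 1.50, but at 0.72 and 0.74 they missed the limit when RPKM was computed from total reads. The DEAD-box helicase vasa-1, a germ line and stem cell gene, rose by 2.57 and the chromatin proteins HP1-1 and H2A.Z by 1.39 and 2.42, that of HP1-1 also being lost on total reads at 0.62. Of 39 tested DNA replication and cell cycle transcripts 36 rose and none fell. PCNA, the sliding clamp of DNA polymerase, had 208, 241, 113 and 156 RPKM in S5, against 27.9, 43.1, 27.7 and 23.8 RPKM in C4 (2.53 ± 0.26). The replicative helicase subunits MCM2 and MCM5 rose by 2.59 and 2.44, the ribonucleotide reductase transcripts RRM2 and RRM2-2 by 3.02 and 2.64, and cyclin B-1 and cyclin B-2, which drive mitotic entry, by 2.46 and 2.18. Aurora kinase, SMED30015999, had the largest difference of this list at 3.77, with 33.7 to 69.2 RPKM in S5 and 3.4 to 5.01 RPKM in C4. A yolk mean at or above the S5 mean was found for 17 of the 204 neoblast transcripts that rose and 3 of the 36 replication transcripts. Over all higher calls it was found for 989 of 3507. A yolk mean of at least 1 RPKM was found for 90 of the 204 and 10 of the 36, and for 1954 of the 3507. The part of yolk in these rises was not tested. The replication-linked histone H3 SMED30021776 rose by 4.15.

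The largest difference on the neoblast list belonged to a transcript whose RPKM was higher in yolk. The scaling raises yolk RPKM relative to the share of reads, so a greater abundance in yolk is not shown. SMED30035718, matched to the vesicle protein synaptotagmin-15, had 310.4, 163, 125 and 199.8 RPKM in S5 and 0.803 to 1.06 RPKM in C4, and it had 956 to 1369 RPKM in yolk. Transcripts that mark specialized adult neoblast classes moved less uniformly than the neoblast list. In the gamma class, linked to the gut lineage, 3 of 46 rose (6.5%) and 32 fell (69.6%). All 3 that rose had a yolk RPKM at or above S5, on a scale that raises yolk values. In the zeta class, linked to the epidermal lineage, 8 of 51 rose (15.7%) and 22 fell (43.1%). In the sigma class, the broadly specified neoblasts, 14 of 75 rose (18.7%) and 39 fell (52.0%). Over all transcripts tested 12.9% rose and 24.5% fell, so the rising shares of zeta and sigma were near the general one. Translocator protein SMED30005188 of the gamma list had 8.13 to 11.8 RPKM in S5 and 370.3 to 572 RPKM in C4 (-5.59 ± 0.17). The zeta-list Hox gene abdBa rose by 5.09, with 98.6 to 175 RPKM in S5, 2.92 to 4.0 RPKM in C4, and 338 to 687 RPKM in yolk. Musashi, an RNA-binding protein gene, fell by 4.15, at 0.321 to 1.39 RPKM in S5 and 11.6 to 12.4 RPKM in C4.

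Neoblast genes and lineage regulators named by the study went in both directions, in proportions that depended on the scaling. Of 53 such genes 24 rose and 9 fell, where 12.9% and 24.5% of all transcripts tested did. The other 20 were not called, with differences of -1.42 to 0.64. When RPKM was computed from total reads, 13 of the 53 were higher and 13 lower. The Sox-family factors soxP-1 (40.8, 63.6, 48.2 and 43.3 RPKM in S5, against 7.02, 7.6, 8.25 and 5.76 RPKM in C4) and soxP-2 (17.2 to 23.9 RPKM in S5, 3.59 to 5.27 RPKM in C4) rose by 2.75 and 2.14. SoxP-5 rose by 1.51, and the zinc finger gene zfp-1, required for the epidermal lineage, by 1.13. The Sp-family factor sp5* of the zeta list had 95.3, 40.7, 91.1 and 97.4 RPKM in S5, against 6.88 to 10.5 RPKM in C4, and the runt-1 factor had 2.16 to 3.05 RPKM in S5 and 0.224 to 0.866 RPKM in C4. Gut regulator gata456a rose by 1.06, at 34.9 to 53.6 RPKM in S5 and 16.4 to 24.2 RPKM in C4, while hnf-4, a second regulator of gut fate, overlapped at 36.4 to 54.3 RPKM in S5 and 30.6 to 42.1 RPKM in C4. The study's sequencing also found both genes in yolk, whereas its staining showed them in the embryo alone. The part of yolk in the S5 levels was not tested. Homeobox gene nkx2.2* fell by 3.75, with 2.4, 2.86, 4.19 and 2.51 RPKM in S5, against 48.2, 36.3, 42.0 and 36.7 RPKM in C4. Further rises of little over 1 log2 unit were those of sp6-9 (1.02), pitx (1.14), soxB1 (1.21), gata123* (1.25) and the TEF-family gene SD1 (1.23). All 5, with soxP-5, zfp-1, gata456a and the RNA-binding protein gene bruno-like (1.42), dropped below the limit on total reads, at 0.28 to 0.75. Leaving out 1 library also ended some of these calls, that of zfp-1 without S5 replicate 1 (0.95), that of sp6-9 without C4 replicate 1 (0.95), S5 replicate 2 (0.94) or S5 replicate 3 (0.86), and that of gata456a without C4 replicate 2 (0.95) or S5 replicate 4 (0.96).

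Several regulators were not called. The neural factor coe had 1.37, 4.4, 8.99 and 4.28 RPKM in S5, against 5.01, 4.98, 5.59 and 5.28 RPKM in C4. The tumour suppressor homologue p53 had 21.4 to 32.7 RPKM in S5 and 16.6 to 24.0 RPKM in C4, and egr-1 had 15.9 to 27.9 RPKM in S5 and 14.5 to 22.2 RPKM in C4, with overlap between the groups for coe, p53 and egr-1. The homeobox gene pbx-1 had 51.2 to 65.6 RPKM in S5 and 34.0 to 44.4 RPKM in C4, without overlap but under the limit of the call. Among other regulators, 2 of 34 homeobox transcripts rose and 9 fell (26.5% lower, near the 24.5% over all transcripts tested), with a median of -0.30 against -0.18 over all. The LIM-homeobox gene SMED30014138 had 0 to 0.0525 RPKM in S5 and 10.1 to 12 RPKM in C4 (-6.51 ± 0.27), and the Dlx-type gene SMED30010536 had 0.259 to 0.37 RPKM in S5 and 5.51 to 7.39 RPKM in C4. In the list of Sox, Fox, Gata, basic helix-loop-helix and zinc finger factors 8 of 25 rose and 8 fell, but on total reads 4 rose and 13 fell. The NeuroD-type gene SMED30010251 had 2.87 to 6.16 RPKM in S5 and 0.592 to 0.952 RPKM in C4, whereas the achaete-scute homologue SMED30007346 had 0 to 0.882 RPKM in S5 and 23.2 to 43.7 RPKM in C4, and the FoxO-type gene SMED30012265 fell by 3.09. Nanos, a translational repressor of germ cells, fell by 1.35 at 0.403 to 1.24 RPKM in S5 and 1.62 to 3.39 RPKM in C4. The nanos call was lost after quantile normalization (-0.44), with a pseudocount of 1 RPKM (-0.84) and with sample weights (-0.93).

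Signalling genes went in both directions. Of 8 Wnt and frizzled transcripts, ligands and receptors of the pathway that patterns the head-to-tail axis in adults, 2 rose and 4 fell, where 12.9% and 24.5% of all transcripts tested did. The ligand Wnt-2, SMED30026602, had 0.0928, 0.283, 1.0 and 0.143 RPKM in S5, against 4.33, 4.89, 4.17 and 5.08 RPKM in C4 (-3.65 ± 0.49). The receptors frizzled-8 (SMED30017913) and frizzled-5 (SMED30020953) fell by 2.83 and by 3.67. In the other direction, the Wnt-4 ligand SMED30001470 had 22.0, 10.7, 10.8 and 10.2 RPKM in S5, against 1.82, 2.64, 1.8 and 0.871 RPKM in C4 (2.86 ± 0.35). A TGF-beta family ligand, the inhibin beta-type transcript SMED30031091, had 0.0387 to 0.0894 RPKM in S5 and 14.1 to 22.4 RPKM in C4 (-6.77 ± 0.25). The fibroblast growth factor receptor gene fgfr1 fell by 2.60, at 0.72 to 1.99 RPKM in S5 and 6.3 to 10.4 RPKM in C4.

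Epidermal progenitor markers varied widely between S5 embryos. Prog-1, a marker of early epidermal progenitors, had 18.8, 116, 93.3 and 78.4 RPKM in the S5 embryos, against 217, 291, 219 and 154 RPKM in the C4 adults (-1.76 ± 0.50, adjusted p = 0.012). AGAT-1, a marker of later progenitors, had 11.9, 99.5, 123 and 143 RPKM in S5, against 186, 219, 147 and 147 RPKM in C4 (-1.35, adjusted p = 0.11), and AGAT-2 had 9.27, 89.5, 125 and 127 RPKM in S5, against 178, 208, 136 and 134 RPKM in C4 (-1.42, adjusted p = 0.12). S5 replicate 1 was several times lower than the other 3 embryos for all 3 genes. Summed, the progenitor markers gave 40.0 RPKM in S5 replicate 1 and 305, 341 and 349 RPKM in the other embryos. Without S5 replicate 1 the differences shrank to -1.18 for prog-1 (limma adjusted p = 0.0017), -0.51 for AGAT-1 (adjusted p = 0.051) and -0.52 for AGAT-2 (adjusted p = 0.059). The same embryo was the lowest of the 4 for 18 of 22 transcripts noted in adult epidermis and for 42 of 43 axoneme and cilia transcripts. It was the lowest for 34.5% of all transcripts tested. For 95 of 100 yolk-abundant transcripts it was the highest, against 20.9% of all transcripts tested. Without this library 11 epidermis transcripts were lower in place of 10, 24 cilia transcripts in place of 29, and 53 gut transcripts in place of 54. Other epidermal transcripts fell in every embryo, prog-2 with 18.6, 200.2, 173 and 172 RPKM in S5, against 566, 906, 559 and 471 RPKM in C4, and pmp-6 and pmp-10 by 3.15 and by 4.55. Without S5 replicate 1 the differences were -1.74 for prog-2, -2.37 for pmp-6 and -3.40 for pmp-10, all still called.

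**Figure D4:**
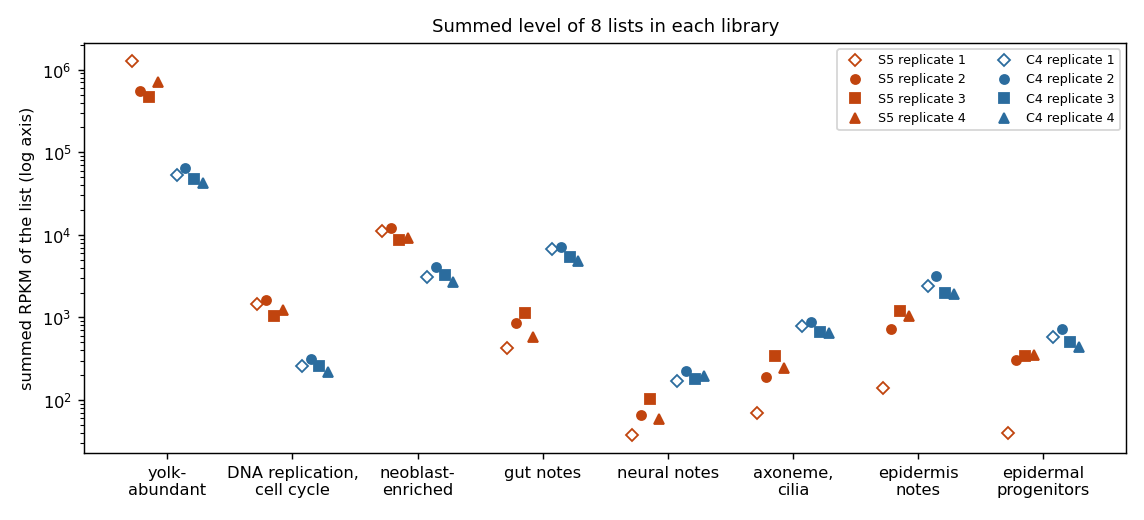
Summed RPKM of 8 lists in each library on a log axis, S5 embryos in orange on the left and C4 adults in blue on the right of each list; open diamonds are replicate 1 of each group. S5 replicate 1 has the highest yolk sum and the lowest sums for gut, neural, cilia, epidermis and epidermal progenitor lists among the S5 embryos, but not for the neoblast and replication lists.

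Transcripts noted in adult gut, nervous system, eye and muscle were mostly lower in S5, those noted in epidermis and protonephridia less so. These lists come from expression sites that the study noted for its stage-enriched transcripts. The study chose those by comparisons that included the S5 libraries, so the counts are not independent evidence of a direction. Of 64 transcripts noted in the gut 54 fell and 4 rose (median -2.95), and of 26 noted in the nervous system 17 fell and 1 rose (-2.24). Of 37 noted in the eye 24 fell and 2 rose (-1.53), and of 11 noted in muscle 8 fell and none rose (-2.46). Of 22 noted in the epidermis 10 fell (45.5%) and 1 rose (-1.69). Of 6 noted in protonephridia, the excretory tubules, 2 fell (33.3%) and none rose (-0.58). Over all transcripts tested 24.5% fell and 12.9% rose, with a median of -0.18. In the gut list, the excitatory amino acid transporter SMED30011663 had 0.808, 0.868, 3.73 and 1.39 RPKM in S5, against 126, 165, 116 and 103 RPKM in C4 (-6.40 ± 0.41). The neurotrypsin-like protease SMED30005872 had 0.131 to 0.512 RPKM in S5 and 25.2 to 35.6 RPKM in C4, and the matrix protein transcripts SMED30000013 and SMED30034597, matched to TGF-beta-induced protein, had 0.77 to 2.23 RPKM in S5 and 110.0 to 187 RPKM in C4. Glutathione S-transferase-1, a detoxifying enzyme, was already abundant in the embryo and still 3.58 log2 units lower, with 200.2, 391, 421 and 214 RPKM in S5, against 4134, 4141, 3035 and 2787 RPKM in C4.

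Of 64 synapse and neuropeptide transcripts 56 fell (87.5%) and 2 rose (3.1%), with a median of -3.45, where 24.5% and 12.9% of all transcripts tested did. Like the cilia list below, this list holds only transcripts of the study's stage-enriched or neoblast tables. Its counts are therefore not independent evidence of a direction. Synaptotagmin-1, SMED30020209, the calcium sensor of vesicle release, had 0.1, 0.102, 0.13 and 0.155 RPKM in S5, against 17.8, 19.8, 17.2 and 18.7 RPKM in C4 (-6.38 ± 0.20, adjusted p = 1.6e-08). The neuropeptide precursor SMED30011959, matched to myomodulin, had 0 to 0.205 RPKM in S5 and 14.3 to 17.9 RPKM in C4, and the complexin SMED30009438, which clamps vesicle fusion, had 0 to 0.309 RPKM in S5 and 4.44 to 7.04 RPKM in C4. Adult levels of these genes varied little between animals. Of 43 axoneme and cilia transcripts 29 fell and none rose, but they kept a measurable level in the embryo: tektin-4, SMED30012757, had 1.31, 1.67, 6.53 and 3.32 RPKM in S5 and 26.6 to 32.3 RPKM in C4, and radial spoke head protein 3, SMED30025672, had 1.77 to 8.18 RPKM in S5 and 37.7 to 46.6 RPKM in C4. After quantile normalization 18 cilia transcripts and 15 eye transcripts were lower.

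**Figure D5:**
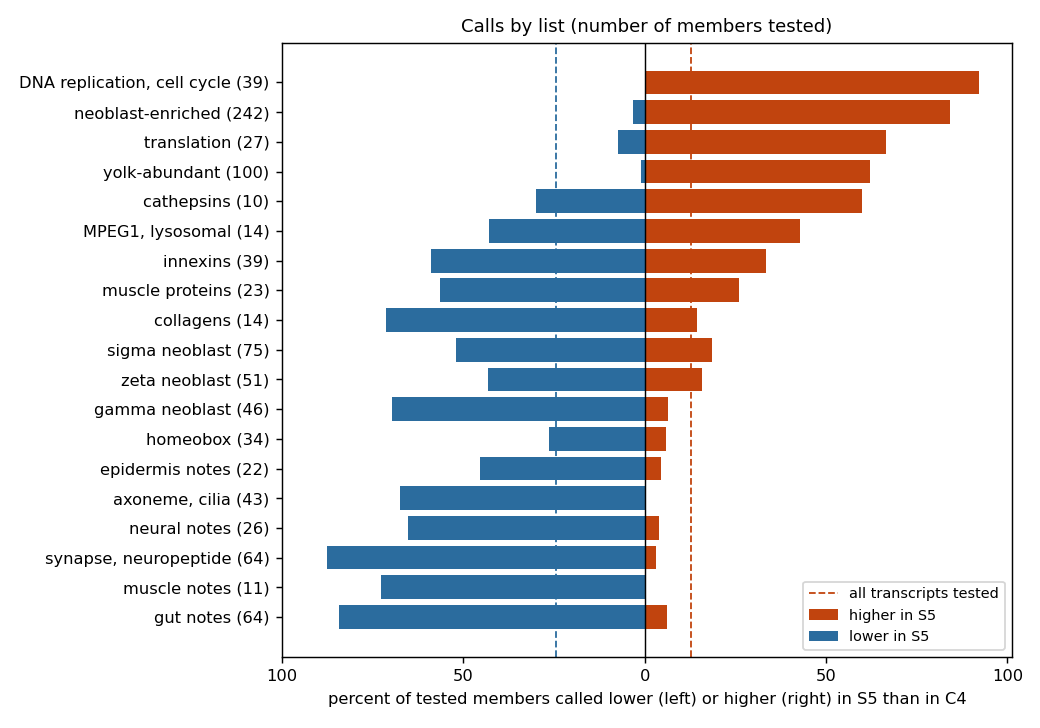
Percent of the tested members of 19 lists that were called lower (blue, to the left) or higher (orange, to the right) in S5 than in C4, with the number tested in parentheses. Dashed lines mark the shares over all transcripts tested, 24.5% lower and 12.9% higher; the replication list reached 36 of 39 higher and the gut list 54 of 64 lower.

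Unannotated transcripts led the largest falls. SMED30011668, which has no annotation in the study's tables, had 0, 0, 0 and 0.469 RPKM in the S5 embryos, against 284, 217, 174 and 126 RPKM in the C4 adults (-10.28 ± 0.55), and SMED30006480, also unannotated, had 0 to 0.424 RPKM in S5 and 229 to 332 RPKM in C4. Among annotated transcripts, the ganglioside GM2 activator SMED30007906, a lysosomal lipid carrier in mammals, had 1.51, 0.638, 0.109 and 0.129 RPKM in S5, against 345, 525, 261 and 259.6 RPKM in C4 (-9.41 ± 0.60). The Kunitz-type protease inhibitor SMED30007141 had 0.205 to 2.37 RPKM in S5 and 424 to 916 RPKM in C4. Zinc metalloproteinase SMED30007813 had 1.85 to 9.16 RPKM in S5 and 1681 to 2435 RPKM in C4, and gastric triacylglycerol lipase SMED30003335, a fat-digesting enzyme, had 0.298 to 1.49 RPKM in S5 and 217 to 306 RPKM in C4. The metabolic enzyme glycine N-methyltransferase, SMED30003448, fell by 8.94 and the secreted peptidase inhibitor 16, SMED30013976, by 8.92. X1.C3.3, SMED30005838, had 0.9 to 4.85 RPKM in S5 and 1016 to 1657 RPKM in C4. In 355 transcripts called lower no S5 library had a single read, which puts the adults at least 3.01-fold to at least 369-fold higher, with a median of at least 23.2-fold, taking 3 reads over the S5 group as the floor. Conversely, 41 transcripts called higher had no read in any C4 library, at least 9.39-fold to at least 388-fold higher in S5. Their levels in sexual adults (SX) varied, so not all of them were particular to the embryo. SMED30025093 averaged 2.70 RPKM in S5 and 15.2 RPKM in SX, and SMED30007251 averaged 6.35 RPKM in S5 and 0.00484 RPKM in SX.

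Lists that the study drew from these libraries gave mixed directions, and their counts are not independent evidence. Of 1048 early embryo enriched transcripts, which peak before S5, 856 were tested. Of these 277 (32.4%) were higher and 183 (21.4%) lower in S5 than in C4. Over all transcripts tested 12.9% were higher and 24.5% lower, so the lower share of this list was near the general one. The early embryo enriched transcripts divided by cluster. Cluster 5 had 90 higher (23.9%) and 160 lower (42.4%) of 377. Cluster 6 had 125 higher (33.2%) and 18 lower (4.8%) of 376, and cluster 8 had 62 higher (60.2%) and 5 lower (4.9%) of 103. Of 764 transcripts enriched at stage 5 over other embryonic stages, 226 were higher (29.6%) and 286 lower (37.4%) than in adults. Of 747 tested stage 6 enriched transcripts 33 were higher (4.4%) and 559 lower (74.8%). In the yolk libraries none of the 226 stage 5 enriched transcripts that rose reached its S5 mean, and 7 of the 277 early embryo enriched ones did. The study's reference for choosing these lists included the yolk libraries, and it omitted early-stage transcripts upregulated in yolk. These yolk counts were therefore largely fixed by the choice of the lists.

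Sexual adults (SX), sequenced on a separate lane, give a second adult level for some of these transcripts. SMED30008790, unannotated, had 0 to 2.07 RPKM in S5 and 257 to 474 RPKM in C4, but 0.0847 to 0.618 RPKM in SX. The abundant adult transcript SMED30010350 had 3.28 to 21.3 RPKM in S5, 5282 to 8221 RPKM in C4 and 2551 to 4893 RPKM in SX, and SMED30028565 had 7.24 to 13.8 RPKM in S5, 3812 to 6220.4 RPKM in C4 and 4473 to 6297 RPKM in SX. Tubulin alpha-3, SMED30002688, was low in both groups compared here, 0 to 0.106 RPKM in S5 and 0.856 to 1.51 RPKM in C4, and had 247 to 378 RPKM in SX. Ubiquitin-60S ribosomal protein L40 had 105 to 267 RPKM in SX. Some transcripts higher in S5 stayed low in both kinds of adults, with SX levels of 0.655 to 1.41 RPKM for CTSL-like, 0 to 0.148 RPKM for gelsolin-like and 0.207 to 0.77 RPKM for the innexin SMED30002918. Others did not: cathepsin B SMED30010459 varied at 0.0634 to 22.5 RPKM in SX. SMED30026148, without a read in C4, averaged 19.8 RPKM in S5 and 14.4 RPKM in SX. With SX in place of C4, 3284 transcripts were higher in S5 and 7790 lower, 2391 and 4626 of them shared with the calls against C4.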

How the data were processed

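Single-animal poly(A) RNA was sequenced, and the deposited table holds RPKM per transcript for 40 libraries. Per the labels and the study's methods, the authors demultiplexed reads with CASAVA 1.8.2, aligned them with Bowtie to an assembled transcriptome, allowing mismatches and multiple matches, and computed RPKM with edgeR on library sizes scaled by TMM. Whether counting used strand is not given in the sources used here. A lane held 1 replicate of each stage, yolk and C4, and SX was run on a separate lane.

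Values were analysed as log2(RPKM + 0.1) for the 4 S5 and 4 C4 libraries. Transcripts with an RPKM sum of at least 1 over the 8 libraries were tested with limma 3.58.1 in R 4.3.3 (lmFit, eBayes with trend, group as the only term), with Benjamini-Hochberg adjustment. A fold change on this scale understates the change of low transcripts. No rRNA transcript was in the table. The RPKM values give whole reads for 100% of nonzero values (within 0.0001 reads), from which depth, shares of reads and floors were computed. The floors cover counting error only, while the SEs come from limma and include the spread between animals. Library-level differences used exact two-sided permutation tests. Replicates are separate animals per the labels. No 2 libraries agreed within sampling noise (chi-square per degree of freedom of 8.65 or more). The limma step was tested on simulated data.

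Gene lists came from identifiers, tissue notes and best-hit annotations in the study's tables, so keyword lists cover only transcripts annotated there. Many of those transcripts were chosen by stage comparisons that included S5. The directions of keyword and tissue lists are therefore not independent evidence. Lists, markers and members were chosen with earlier results of these data known. Named transcripts were all tissue markers, the 10 largest differences in each direction without overlap and at 10 RPKM or more (over all and over annotated transcripts), up to 4 called members of each list in each direction, transcription factors and neoblast genes named by the study, and the 5 most abundant transcripts of each group; the text uses a part of these. Alternatives were other pseudocounts (1 and 0.01 RPKM), filters, scalings, fits and a stricter call, leaving out each replicate, a replicate block and, added after seeing the data, the yolk list left out of the scaling and SX in place of C4. No genome coordinates were used here.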

Additional observations from a re-analysis of the deposited data

Results flagged for a closer look

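In 17 of 274 groups of 4 libraries checked, 1 library lay far from the other 3, by Dixon's 95% critical value for the gap to the nearest value. Chance flags about 1 in 20 groups, and no explanation was tested. In S5 replicate 1 this held for 6 transcripts: low values of prog-2 (18.6 RPKM), nanos (0.403) and pbx-1 (51.2), and high values of the Wnt-4 ligand SMED30001470 (22.0), gastric lipase SMED30003335 (1.49) and SMED30008790 (2.07). The high SMED30003335 and SMED30008790 values are in the group where both transcripts are low. S5 replicate 2 stood apart for SMED30032465, high at 305 RPKM, and for sp5*, low at 40.7. S5 replicate 3 was high for the MPEG1 copy SMED30019745, at 1.29 RPKM.

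Among adults, C4 replicate 2 stood apart for 7 transcripts. It was high for the H2A.Z histone (40.7 RPKM), the achaete-scute homologue SMED30007346 (43.7), pmp-6 (227), Kunitz inhibitor SMED30007141 (916), X1.C3.3 (1657) and egr-1 (22.2), and low for myosin heavy chain SMED30016281 (335). This library has the smallest depth of the 4 adults, 12167500 reads, and the fewest detected transcripts, 26072. C4 replicate 1 was high for tektin-4 SMED30012757 at 32.3 RPKM.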

How the results depend on the processing

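The 3507 higher and 6680 lower calls became 5417 higher after quantile normalization and 1665 higher when RPKM was computed from total reads without TMM, and 513 higher and 1843 lower at 5-fold and adjusted p below 1e-05; the lower counts under the first 2 were 5383 and 9919. Leaving out 1 library gave 3269 to 3642 higher and 6463 to 6868 lower calls, a separation of 1.42 to 1.62, a top-100 difference of 29.4 to 35.5 points, and a difference in detected transcripts of -4622 to -2670; that of -4622, without C4 replicate 2, passed the exact test (p = 0.0286), as did -2350 for transcripts at 1 RPKM or more and -4876 at 10 reads or more.

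With the replicate number as a block, 3463 transcripts were higher and 6674 lower, 3439 and 6643 of them shared with the fit without it; the stricter counts fell to 143 and 321. Leaving out 1 library gave 246 to 416 higher and 625 to 1920 lower at the stricter limit, from C4 replicate 1 to S5 replicate 3. Same-numbered S5 and C4 libraries did not deviate together (r of -0.0459 to 0.0377), so the numbers did not pair animals.

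Of 134 named transcripts 113 kept their call in every alternative fit of S5 against C4 with the same call limits; of the 126 called, 85 passed the stricter limit as well. On total reads 12 calls were lost and 2 gained. Direction changed only for regulators not called: coe (0.40 after quantile normalization, and -0.79 to 0.087 over the fits leaving out 1 library, the highest without S5 replicate 1) and, on total reads, hnf-4 (-0.45), pbx-1 (-0.12), p53 (-0.31) and egr-1 (-0.36); the cause was not tested. Beside the stricter limit, which moved 48 of 70 list counts by over 1.5 times, total reads moved 15: higher counts fell to 13 (stage 6 enriched), 7 (sigma), 4 (zeta, Sox and Fox list), 2 (blastomere and neoblast) and 0 (gamma, gut, eye, homeobox), and lower counts became 30 (cluster 6), 17 (epidermis), 13 (Sox and Fox list), 4 (translation), 3 (epidermal progenitor) and 2 (yolk). Quantile normalization moved 10: 10 homeobox transcripts were higher, and lower counts were 102 (early embryo enriched), 90, 9 and 3 (its clusters 5, 6 and 8), 18 (cilia), 15 (eye), 5 (Sox and Fox list, yolk) and 1 (translation). With the yolk list out of the scaling, 214 of cluster 6 and 0 of the yolk list were higher. Depth limits the 355 and 41 transcripts without reads in 1 group to lower bounds.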
